A study of Mus musculus with 20 samples.

Results

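The genes described here are 10 myeloid cell genes, namely Itgax, Itgam, Adgre1, Csf1r, Cx3cr1, Cd68, Lyz2, Cd163, Mrc1 and C1qa, which are in common use as markers of macrophages and dendritic cells. They were taken by name from a list, chosen with earlier results of these data known. They make up 10 of the 35204 genes in the table of estimated counts per gene. All 10 were among the 16306 genes tested. They were measured by RNA sequencing of the ileum of 20 female C57Bl6 mice that were 7 weeks old when the diets began, with 5 mice in each of 4 groups. Mice ate an amino acid-based control diet (CD) or the same kind of diet lacking the amino acid tryptophan (TDD) for 3 weeks. They either kept their specific pathogen-free microbiota (SPF) or drank sweetened water with an antibiotic cocktail of ampicillin, vancomycin, metronidazole, neomycin and gentamycin (ABX), which gives the groups CD, TDD, CD+ABX and TDD+ABX. No group carried a transgene or a mutation, and each library came from a short piece of whole ileum, so that fewer cells of a type and less RNA per cell cannot be told apart. Total counts per mouse ran from 36.68 M to 58.66 M with a median of 47.56 M. The 10 genes were read by between 51 and 4903 estimated counts per mouse, fewest for Cd163 and most for Lyz2.

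Macrophages of the intestinal lamina propria are replenished from blood monocytes, which arrive with the surface markers of monocytes and gain those of mature macrophages in the tissue. They sit below the epithelium, take up bacteria and dying cells, and are known to depend on signals from the microbiota and on the growth factor receptor CSF1R. Dendritic cells share several of these surface proteins, among them CD11c, and carry antigen to lymph nodes. None of the 10 genes marks a single cell type: Itgam is also used by neutrophils and natural killer cells, Itgax by some lymphocytes, and Lyz2 by other phagocytes.

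Lyz2 needs a word on sequence before its values, because its neighbour Lyz1, the lysozyme of Paneth cells, is nearly identical and far more abundant in ileum. Over the 444 coding bases they differ at 22, an identity of 95%. Exon 2 of each gene is shown, 165 bases that code over their whole length and that differ at 6 bases, with the differing bases in capitals (GENCODE M21 on GRCm38, Lyz2 at chr10:117280641-117280805 and Lyz1 at chr10:117291029-117291193, both on the minus strand).
Lyz2 exon 2: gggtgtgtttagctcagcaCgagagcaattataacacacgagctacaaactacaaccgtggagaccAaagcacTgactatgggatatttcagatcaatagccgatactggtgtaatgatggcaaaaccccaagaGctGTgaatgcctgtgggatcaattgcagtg
Lyz1 exon 2: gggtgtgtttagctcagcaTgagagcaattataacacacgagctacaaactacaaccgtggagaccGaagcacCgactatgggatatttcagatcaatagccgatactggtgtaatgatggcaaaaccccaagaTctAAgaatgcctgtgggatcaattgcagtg
The counting tool, kallisto, matches reads by stretches of 31 bases by default, and 422 of the 1286 different stretches of the Lyz2 transcript (32.8%) also occur in that of Lyz1. Lyz1 had 4680 ± 919 CPM in CD mice and Lyz2 78.8 ± 16.2 CPM (SD, n = 5), so how the shared reads were split bears on Lyz2 far more than on Lyz1. The count of Lyz2 is uncertain for this reason.

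Upstream sequence from RefSeq was searched for 7 of the 10 genes. Adgre1, Csf1r and C1qa were left out, so the count below does not cover them. In the 250 bases before the start site, the letters GAGGAA, the core that the myeloid transcription factor PU.1 is known to bind, were searched on both strands (TTCCTC on the other). They occurred in 3 of the 7 genes, namely Itgam, Cd68 and Mrc1, and in 23.3% of the 32851 promoters of the same length. The windows of Itgam and Cd68 are shown as examples with a match and that of Cd163 as the gene that moved apart from the others below, with matches in capitals (GRCm38.p6).
Itgam, chr7:128062390-128062639, plus strand: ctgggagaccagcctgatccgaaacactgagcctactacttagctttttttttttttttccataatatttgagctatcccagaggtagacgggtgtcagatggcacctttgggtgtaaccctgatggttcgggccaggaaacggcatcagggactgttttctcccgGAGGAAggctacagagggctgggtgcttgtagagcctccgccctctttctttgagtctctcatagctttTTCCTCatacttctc
Cd68, chr11:69666171-69666420, minus strand: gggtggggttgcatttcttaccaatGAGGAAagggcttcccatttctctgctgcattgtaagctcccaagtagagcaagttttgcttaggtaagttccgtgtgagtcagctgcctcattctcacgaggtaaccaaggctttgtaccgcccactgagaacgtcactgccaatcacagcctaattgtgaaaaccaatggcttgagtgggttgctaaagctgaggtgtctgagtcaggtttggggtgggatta
Cd163, chr6:124304401-124304650, plus strand: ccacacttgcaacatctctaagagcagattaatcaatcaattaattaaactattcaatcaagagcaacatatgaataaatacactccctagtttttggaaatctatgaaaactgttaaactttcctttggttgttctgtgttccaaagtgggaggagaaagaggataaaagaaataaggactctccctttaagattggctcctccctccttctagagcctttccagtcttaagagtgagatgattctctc
The matches lay 84 and 15 bases before the start in Itgam and 225 bases before it in Cd68. Cd163 had no such letters in this window, and neither had Itgax, Cx3cr1 and Lyz2. Whether the letters bear on the levels was not tested.

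Levels can be compared between genes only per length, as TPM summed over the transcripts of a gene. In CD mice the highest were Lyz2 at 87.0 ± 19.2 TPM and C1qa at 69.7 ± 8.27 TPM (SD, n = 5), whose ranges overlapped. Csf1r followed at 18 ± 1.59 TPM, above Itgax at 12.5 ± 2.09 and Cd68 at 10.8 ± 1.95 TPM (SD, n = 5), and the ranges of the last pair overlapped. Itgam, Cx3cr1, Adgre1 and Mrc1 lay between 2.88 and 5.06 TPM in the mean, and Cd163 was lowest at 0.733 ± 0.189 TPM (SD, n = 5). Over all 20 mice, C1qa was above Csf1r in 20 mice and Cd68 above Itgam in 20 mice, whereas Lyz2 was above C1qa in only 11 and Adgre1 above Mrc1 in 9.

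The comparison of TDD with CD in SPF mice asks how tryptophan deficiency changed these genes with the microbiota in place. Adgre1, Csf1r, Cd68 and C1qa passed the test as lower on TDD and Cd163 as higher, that is 4 of 10 genes lower and 1 higher (quasi-likelihood test of edgeR, adjusted p or q under 0.05). Over all genes tested, 7.71% passed as lower and 6.65% as higher. None of the 10 also reached the 2-fold limit, which 1.83% of all genes did. The median log2 fold change of the 10 genes was -0.33, beside 0.01 over all genes tested. The 5 TDD mice lay below all 5 CD mice for 3 of the 10 genes (4.90% of all genes) and above them for 1 (4.68%).

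Adgre1 encodes the adhesion receptor F4/80, the classical surface marker of mouse macrophages (chromosome 17, 57358691 to 57483527, plus strand). It had 8.65, 8.40, 8.24, 9.13 and 10.8 CPM in the 5 CD mice and 3.61, 6.35, 5.80, 4.76 and 5.95 CPM in the 5 TDD mice. Each TDD mouse was below each CD mouse, and the level was 1.71-fold lower on TDD (log2 fold change -0.77, standard error 0.15, q = 0.00179, edgeR). Csf1r encodes the receptor for the growth factors CSF1 and IL-34, on which most tissue macrophages depend (chromosome 18, 61100598 to 61132149, plus strand). It had 54.2, 52.2, 48.3, 49.9 and 61.1 CPM on CD and 26.4, 40.0, 33.0, 35.1 and 43.2 CPM on TDD. The groups did not overlap here either, and Csf1r was 1.49-fold lower on TDD (log2 fold change -0.58, standard error 0.13, q = 0.00573, edgeR).

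C1qa encodes a chain of C1q, which starts the classical complement pathway and which tissue macrophages make (chromosome 4, 136895917 to 136898803, minus strand). Its levels were 42.2, 49.9, 46.1, 44.5 and 57.2 CPM on CD and 28.9, 40.2, 32.9, 39.1 and 40.2 CPM on TDD, again without overlap (log2 fold change -0.40, standard error 0.10, q = 0.0100, edgeR). Cd68 encodes macrosialin, a glycoprotein of the lysosomal membrane of phagocytes (chromosome 11, 69664213 to 69666153, minus strand). It had 6.47, 7.91, 7.20, 8.81 and 11.5 CPM on CD and 4.29, 6.53, 6.07, 6.30 and 6.49 CPM on TDD. The lowest CD mouse lay within the TDD range, and CD mouse 5 stood highest (log2 fold change -0.50, standard error 0.14, q = 0.0193, edgeR). Cd68 did not pass once CD mouse 5 was left out (log2 fold change -0.37, q = 0.0635, edgeR).

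Cd163 moved the other way. It encodes the macrophage receptor for haptoglobin-bound haemoglobin, which is cleared from blood and tissue through it (chromosome 6, 124304656 to 124330527, plus strand). Its levels were 1.52, 2.84, 2.01, 2.27 and 1.79 CPM on CD and 3.41, 4.97, 3.91, 3.33 and 4.52 CPM on TDD. All 5 TDD mice were above all 5 CD mice, and the level was 1.93-fold higher (log2 fold change 0.95, standard error 0.21, q = 0.00583, edgeR). The 95% interval of this change ran from 0.53 to 1.37 on the log2 scale. Mrc1, which encodes the mannose receptor CD206 and like Cd163 is a scavenger receptor of resident macrophages (chromosome 2, 14229392 to 14332057, plus strand), did not pass. Mrc1 ranged from 9.81 to 11.7 CPM on CD and from 8.13 to 11.7 CPM on TDD, a log2 fold change of -0.02 with a 95% interval from -0.21 to 0.17.

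The integrin genes and Cx3cr1 did not pass on TDD in SPF mice. Itgax, which encodes the CD11c chain used by dendritic cells and gut macrophages (chromosome 7, 128129547 to 128150657, plus strand), ranged from 23.3 to 37.7 CPM on CD and from 15.0 to 26.1 CPM on TDD (log2 fold change -0.33, q = 0.114, edgeR). Itgam, its neighbour on the same chromosome, encodes the CD11b chain (128062640 to 128118491, plus strand). It ranged from 16.2 to 20.3 CPM and from 12.8 to 17.9 CPM (log2 fold change -0.14, q = 0.389, edgeR). Cx3cr1, the receptor for the chemokine fractalkine that mature gut macrophages carry (chromosome 9, 119901616 to 120069879, minus strand), ranged from 10.3 to 12.7 CPM on CD. On TDD, 4 mice lay between 11 and 12.4 CPM and TDD mouse 1 at 5.95 CPM (log2 fold change -0.11, 95% interval -0.43 to 0.21). Lyz2 (chromosome 10, 117277331 to 117282321, minus strand) had 58.3 to 97.8 CPM on CD and 27.8 to 80.7 CPM on TDD, with a log2 fold change of -0.33 and a standard error of 0.24, the widest of the 10.

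**Figure D1:**
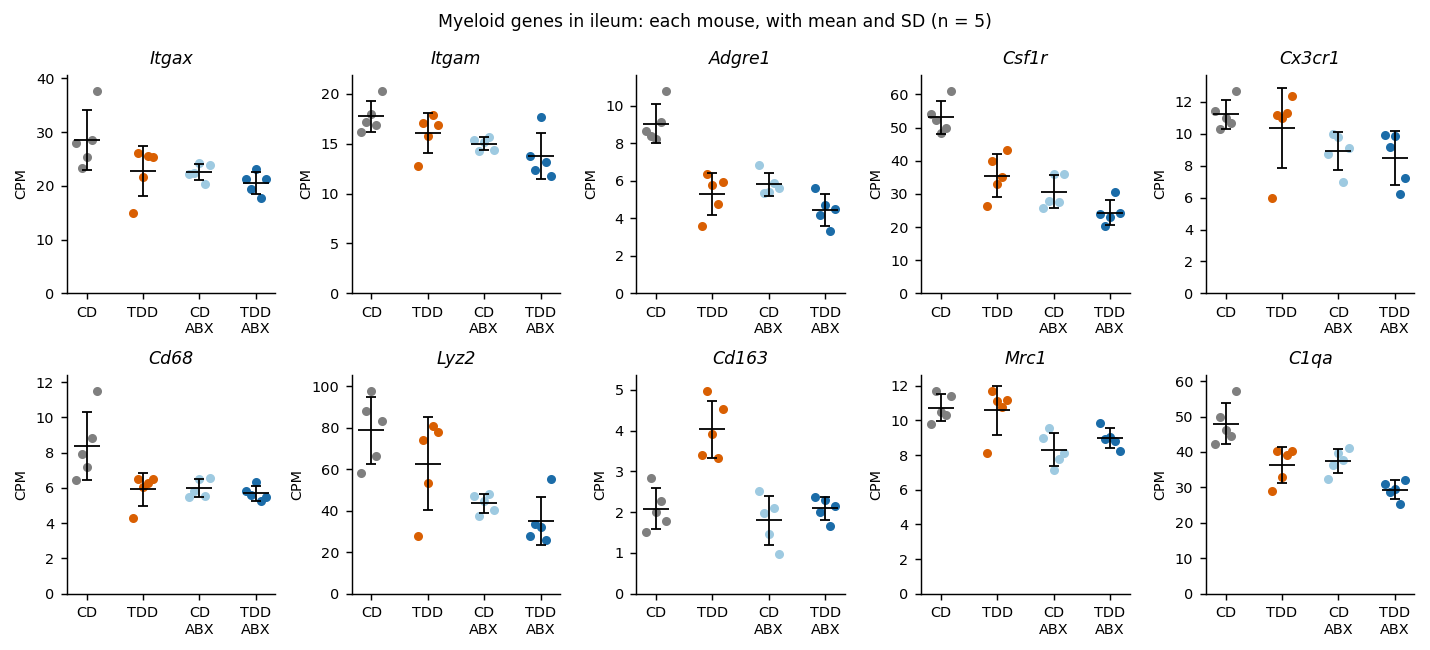
Levels of the 10 genes in CPM (vertical axes, from 0) in each mouse of the groups CD, TDD, CD+ABX and TDD+ABX (horizontal axes), where each point is a mouse and the black marks are the mean and SD of 5 mice. Adgre1 and Csf1r lie highest in CD mice, Cd163 highest in TDD mice at 3.33 to 4.97 CPM, and TDD mouse 1, plotted leftmost in its group, is the lowest TDD mouse in 9 of the 10 panels.

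TDD mouse 1 was the lowest of its group for 9 of the 10 genes, all but Cd163, and CD mouse 5 the highest of its group for 7. Without TDD mouse 1 the same 5 genes passed, with log2 fold changes of -0.66 for Adgre1, -0.49 for Csf1r, -0.40 for Cd68, -0.33 for C1qa and 1.0 for Cd163. Leaving out each of the 20 mice in turn kept Adgre1, Csf1r, C1qa and Cd163 below q of 0.05 in 20 of 20 fits (edgeR).

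With ABX, none of the 10 genes passed between TDD+ABX and CD+ABX (edgeR), where 1.02% of all genes passed as lower and 0.626% as higher, and none reached 2-fold, which 0.307% did. At an unadjusted p under 0.05, 3 of the 10 were counted, beside 14.7% of all genes. DESeq2 passed 1 of the 10, which was C1qa, and 613 of all 16306 genes, where the edgeR fit passed 268. The median log2 fold change was -0.13, beside 0.00 over all genes. C1qa had 32.3, 36.3, 39.8, 37.6 and 41.2 CPM on CD+ABX and 31.1, 28.8, 29.5, 25.4 and 32.1 CPM on TDD+ABX. It was the only gene of the 10 whose groups did not overlap (2.43% of all genes lay apart as lower and 2.35% as higher), with a log2 fold change of -0.35 and a standard error of 0.10 (q = 0.0818, edgeR). This is close to its -0.40 in SPF mice. Adgre1 and Csf1r were at -0.39 (q = 0.211, edgeR) and -0.33 (q = 0.232, edgeR).

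Cd163 ranged from 0.962 to 2.51 CPM on CD+ABX and from 1.67 to 2.38 CPM on TDD+ABX, and the groups overlapped (log2 fold change 0.22, 95% interval -0.20 to 0.64). The difference between the diet effects was tested itself as an interaction. None of the 10 genes passed it (edgeR), where 0.0368% of all genes did and 0.0245% also differed by 2-fold or more. By the other tools, DESeq2 and limma-voom, none of the 10 passed either, where 134 and 0 of all 16306 genes did. In the edgeR fit, 2 of the 10 had an unadjusted p under 0.05, beside 8.87% of all genes. These were Cd163, whose diet effect was 0.73 lower on the log2 scale with ABX than without (interaction -0.73, standard error 0.30, q = 0.457, edgeR), and Cd68 (interaction 0.42, standard error 0.19, q = 0.527, edgeR). For C1qa and Lyz2 the interaction was 0.05 and 0.01, with 95% intervals from -0.22 to 0.33 and from -0.66 to 0.68.

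The effect of the antibiotics was then read within each diet. These comparisons share the CD or the TDD mice with the diet comparison in SPF mice, so the values are given side by side and are not independent of it. On CD, ABX lowered 6 of the 10 genes and raised none, where 7.37% of all genes passed as lower and 5.26% as higher (edgeR). The genes that passed were Csf1r, Adgre1, Mrc1, C1qa, Cd68 and Lyz2. None reached 2-fold, beside 2.25% of all genes. The 5 CD+ABX mice lay below all 5 CD mice for 7 of the 10 genes, where 5.88% of all genes did and 3.86% lay above. The median log2 fold change was -0.36, beside 0.00 over all genes.

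Csf1r had the lowest q of these. Its CD+ABX mice had 25.6, 28.0, 35.9, 27.5 and 36.0 CPM, all below the 48.3 CPM of the lowest CD mouse, a 1.74-fold difference (log2 fold change -0.80, standard error 0.13, q = 0.000895, edgeR). Adgre1 fell to 6.86, 5.37, 5.41, 5.88 and 5.60 CPM, 1.55-fold lower than on CD alone (log2 fold change -0.63, standard error 0.15, q = 0.00783, edgeR). Mrc1 had 7.13 to 9.57 CPM with ABX against 9.81 to 11.7 CPM without (log2 fold change -0.37, standard error 0.10, q = 0.0173, edgeR). C1qa was lower by a similar amount (log2 fold change -0.36, q = 0.0229, edgeR), as was Cd68 (log2 fold change -0.48, q = 0.0247, edgeR). Lyz2 had 47.1, 37.5, 44.7, 48.1 and 40.3 CPM with ABX, below each CD mouse (log2 fold change -0.86, standard error 0.24, q = 0.0280, edgeR).

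Itgam and Cx3cr1 did not overlap between CD and CD+ABX either but did not pass, with log2 fold changes of -0.24 (q = 0.130, edgeR) and -0.33 (q = 0.212, edgeR). Itgax overlapped (log2 fold change -0.33, q = 0.113, edgeR), and Cd163 had a log2 fold change of -0.21 with a 95% interval from -0.63 to 0.21. Without CD mouse 5, or without CD+ABX mouse 2, 3 of the 10 genes passed in place of 6.

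On TDD, ABX lowered 4 of the 10 genes, namely Cd163, Csf1r, Lyz2 and C1qa, where 8.22% of all genes passed as lower and 7.14% as higher (edgeR). None reached 2-fold, beside 1.63% of all genes, and the median was -0.27, beside -0.03 over all genes. Cd163 had 2.38, 2.0, 2.29, 1.67 and 2.15 CPM in TDD+ABX mice, all below the 3.33 CPM of the lowest TDD mouse. It was 1.92-fold lower (log2 fold change -0.94, standard error 0.21, q = 0.00751, edgeR) and the only gene of the 10 without overlap, where 5.05% of all genes lay apart as lower and 5.97% as higher. Csf1r had 23.8, 20.4, 23.0, 30.5 and 24.2 CPM (log2 fold change -0.55, standard error 0.13, q = 0.00999, edgeR), and Lyz2 28.0, 33.7, 32.1, 26.1 and 55.2 CPM (log2 fold change -0.84, standard error 0.24, q = 0.0273, edgeR). C1qa was near the limit (log2 fold change -0.30, q = 0.0445, edgeR) and passed in 6 of 20 fits that each left out 1 mouse.

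This comparison turned most on TDD mouse 1. Without it, 7 of the 10 genes passed as lower with ABX, since Cx3cr1 (log2 fold change -0.44, q = 0.0272, edgeR), Itgam (-0.30, q = 0.0416, edgeR) and Mrc1 (-0.32, q = 0.0161, edgeR) joined the 4. Without TDD mouse 2, 4 or 5, or TDD+ABX mouse 1, 2 or 4, 2 passed. Cd163 and Csf1r passed in each of the 20 fits.

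**Figure D2:**
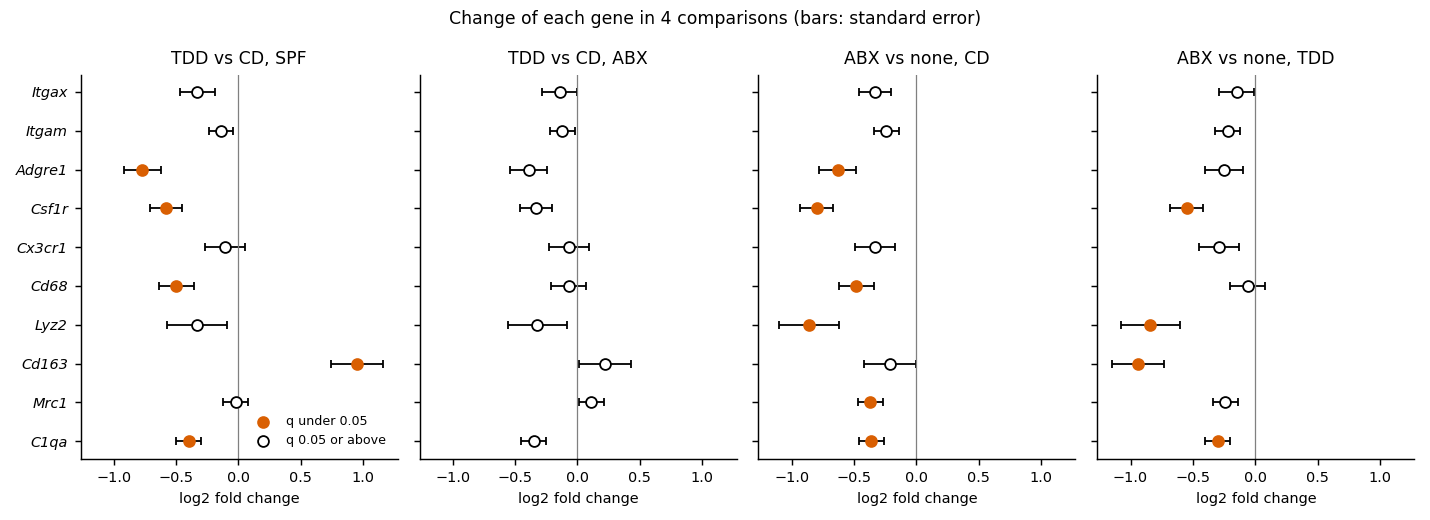
Log2 fold change of each of the 10 genes (horizontal axes, points) with its standard error (bars) for TDD against CD in SPF mice, the same with ABX, ABX against none on CD, and ABX against none on TDD. Filled points passed at q under 0.05. Most points lie left of 0, and Cd163 stands to the right at 0.95 in the first panel and to the left at -0.94 in the last.

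Cd163 was the least abundant of the genes, with 51 to 266 estimated counts per mouse, and its counts came from different kinds of transcript. A transcript that keeps an intron and codes for no full protein held 44.1% of its TPM in the mean over mice, and its 2 coding transcripts the rest. The summed coding TPM was 0.324, 0.622, 0.438, 0.508 and 0.350 in CD mice and 0.590, 1.03, 0.843, 0.645 and 1.04 in TDD mice. It was 1.85-fold higher on TDD, with overlap of the ranges (two-sided exact permutation test, p = 0.0159, adjusted p = 0.0317 over 8 tests of both kinds of transcript). The retained-intron transcript was 1.83-fold higher and did not overlap (exact permutation test, p = 0.00794, the smallest this design allows, adjusted p = 0.0212). With ABX both kinds were lower on TDD without overlap, the coding kind 1.85-fold and the retained-intron kind 1.64-fold (exact permutation tests, p = 0.00794 and adjusted p = 0.0212 for each). Between the diets under ABX, the coding transcripts were at 0.295 ± 0.116 TPM on CD+ABX and 0.448 ± 0.0547 TPM on TDD+ABX (SD, n = 5; exact permutation test, p = 0.0317, adjusted p = 0.0508). The retained-intron transcript was at 0.400 ± 0.157 and 0.318 ± 0.0867 TPM there (SD, n = 5; exact permutation test, p = 0.325).

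Itgax also has retained-intron transcripts, at 2.60 to 3.19 TPM in the group means beside 6.84 to 9.28 TPM for its coding transcripts, but these are short and held only 19.3 to 49.6 estimated counts per mouse. A retained-intron transcript of Mrc1 held 16.6% of its TPM in the mean, and 3.47% to 34.6% in single mice. Adgre1, Csf1r, C1qa and Lyz2 were counted from coding transcripts alone.

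Levels of most of the genes were correlated between mice, and those of Cd163 less so. Over the 20 mice, Pearson's r of log2(CPM + 1) was 0.90 between Itgax and Cd68, 0.87 between Csf1r and C1qa, and 0.87 between Adgre1 and C1qa. Cd163 lay between -0.14 and 0.30 with 8 of the other genes and at 0.56 with Mrc1. These are descriptions over mice that share groups and scaling. With each group's mean removed, Adgre1 and Csf1r were at 0.20, Itgax and Cd68 at 0.84, and Cd163 and Adgre1 at 0.47 against -0.07 with the group means in place.

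**Figure D3:**
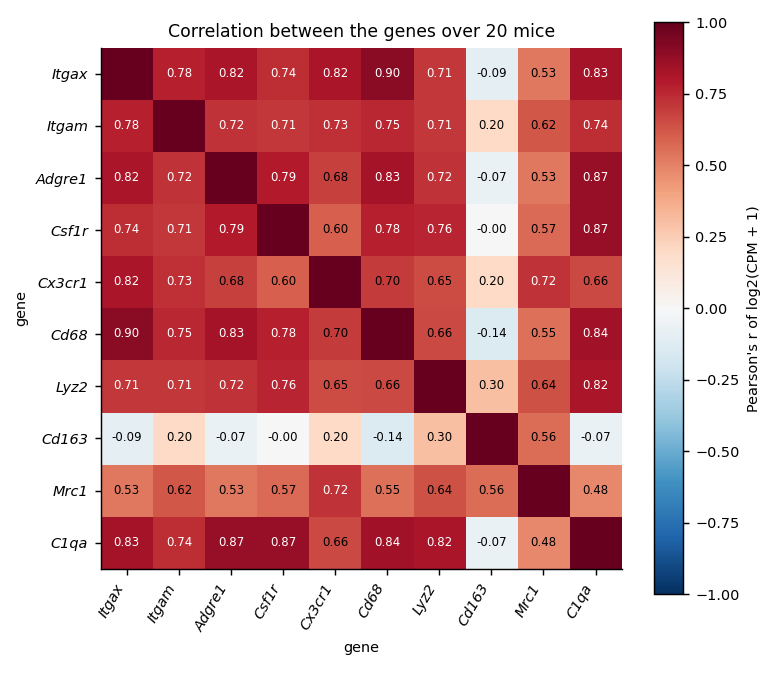
Pearson's r between each pair of the 10 genes (both axes) over 20 mice, from log2(CPM + 1), with the colour scale from -1 to 1 and the value printed in each cell. The row of Cd163 is pale, with 0.56 for Mrc1 as its highest value, whereas Itgax and Cd68 reach 0.90.

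The genes outside the 10 with the levels most like the mean of the 10, each gene set to equal variance over the 20 mice, were Lpcat2 (r = 0.978), Ms4a6c (r = 0.951), C1qc (r = 0.938), Mpeg1 (r = 0.935) and Lcp2 (r = 0.934). For single genes, C1qa was closest to the other C1q chains C1qb (r = 0.956) and C1qc (r = 0.954), and Adgre1 to C1qb (r = 0.930) and Bgn (r = 0.925). Csf1r was closest to Dnase1l3 (r = 0.940) and Gbp8 (r = 0.926), Itgax to Myo1f (r = 0.929) and Abcg3 (r = 0.907), and Cd68 to Myo1f (r = 0.939) and Il12rb1 (r = 0.889). Itgam was closest to Ms4a6c (r = 0.877) and Plekhg1 (r = 0.858), Cx3cr1 to Adam8 (r = 0.895) and Nfam1 (r = 0.893), and Mrc1 to Tmem154 (r = 0.892) and Adamdec1 (r = 0.878). Lyz2 stood with the antigen-presenting genes H2-Aa (r = 0.953) and H2-Eb1 (r = 0.941), and Cd163 with Prpf39 (r = 0.891) and the Paneth cell defensin gene Defa36 (r = 0.877).

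Within TDD and TDD+ABX, Lyz2 was highest in the mice with high B cell markers. The summed level of 10 B cell markers, among them Ms4a1, lay between 112 and 260 CPM in 7 mice (2 of CD, 4 of TDD and 1 of TDD+ABX) and between 5.60 and 41.4 CPM in the other 13. Within groups, r between Lyz2 and this sum on the log2 scale was 0.83, beside 0.52 for C1qa and 0.38 or less for the other 8 genes. Over the 20 mice with the group means in place, Lyz2 was at 0.60, close to Cd163 at 0.59 and Mrc1 at 0.56. In TDD mice, Lyz2 had 27.8 CPM in mouse 1, where the B cell sum was 7.73 CPM, and 53.5 to 80.7 CPM in the 4 mice where it was 124 to 260 CPM. In TDD+ABX mice it had 55.2 CPM in mouse 5, where the sum was 182 CPM, and 26.1 to 33.7 CPM in the others. CD mice were less clear-cut, since Lyz2 had 88.3 and 97.8 CPM in the 2 mice with high B cell markers and 58.3, 66.3 and 83.2 CPM in the 3 mice with sums of 9.06 to 12.1 CPM. B cells are concentrated in lymphoid follicles such as Peyer's patches, and the sources used here do not say whether the pieces of ileum held any. High B cell sums were found in 4 of 5 TDD mice and 0 of 5 CD+ABX mice, and their part in the Lyz2 differences between groups was not tested.

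A fit with the B cell level as a covariate, added after seeing the data, moved Lyz2 most. Its diet effect became -0.75 in SPF mice (q = 0.00604, edgeR) and -0.64 under ABX (q = 0.0492, edgeR), and its ABX effect -0.53 on CD (q = 0.0290, edgeR) and -0.43 on TDD (q = 0.0940, edgeR). Adgre1, Csf1r, Cd68, C1qa and Cd163 still passed between the diets in SPF mice, with log2 fold changes of -0.83, -0.61, -0.52, -0.50 and 0.87. The ABX effect on C1qa no longer passed in either diet, with q of 0.0542 on CD and 0.187 on TDD (edgeR), and its diet effect under ABX did (log2 fold change -0.42, q = 0.0384, edgeR). The B cell level was measured after treatment and differed between groups. This fit therefore cannot separate the part of B cells from that of the treatments.

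**Figure D4:**
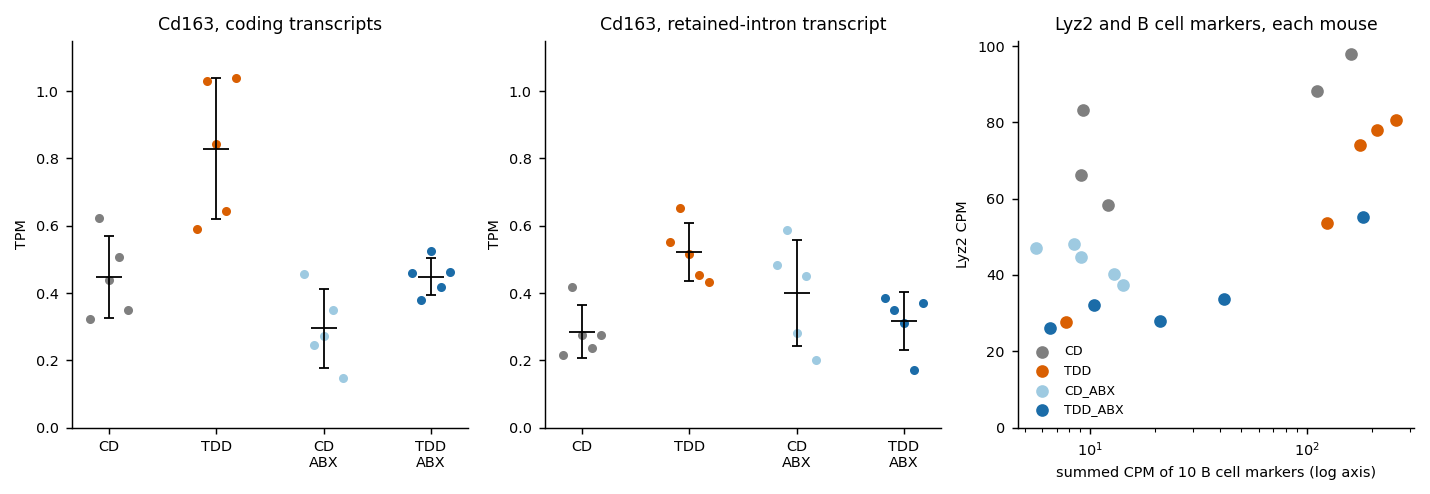
Left and centre, TPM of the coding transcripts and of the retained-intron transcript of Cd163 in each mouse by group, with mean and SD of 5 mice. Right, Lyz2 in CPM against the summed CPM of 10 B cell markers on a log axis, 1 point per mouse coloured by group: the 7 mice at 112 CPM or more on the horizontal axis have 53.5 to 97.8 CPM of Lyz2.

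The other genes of these lineages were read from lists drawn up by name, with earlier results of these data known. Over all genes, 7.71% passed as lower and 6.65% as higher on TDD in SPF mice. Between the diets under ABX these shares were 1.02% and 0.626%. With ABX they were 7.37% and 5.26% on CD, and 8.22% and 7.14% on TDD. The counts of the lists below stand beside these shares. Of 17 further macrophage genes tested, 5 fell on TDD in SPF mice and 1 rose, with a median log2 fold change of -0.33. Those that fell were Ms4a7 (log2 fold change -0.55, q = 0.000547, edgeR), Aif1 (-0.64, q = 0.00179, edgeR), the C1q chains C1qb (-0.51, q = 0.00338, edgeR) and C1qc, and Msr1. Mertk, a receptor for the uptake of dying cells, rose (log2 fold change 0.75, q = 0.00773, edgeR), as Cd163 did. With ABX none of the 17 passed between the diets, Fcgr1 being at -0.21 and Mertk at 0.23. ABX lowered 9 of 17 on CD and 4 of 17 on TDD, among them in both diets the scavenger receptor gene Msr1 (log2 fold change -0.92, q = 9.83e-05, and -0.78, q = 0.000481, edgeR) and Timd4, a marker of long-lived gut macrophages (-1.20, q = 0.00440, and -0.91, q = 0.0210, edgeR). The monocyte genes Ly6c2 (-0.67, q = 0.00421, edgeR) and Vcan (-0.91, q = 0.0260, edgeR) fell on TDD in SPF mice, 2 of 7 tested. With ABX 2 of 7 fell on CD, Spn (-1.39, q = 0.00174, edgeR) and Ly6c2 (-0.63, q = 0.00732, edgeR), and 1 on TDD, Spn (-0.83, q = 0.0320, edgeR), and none passed between the diets under ABX.

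Of 16 dendritic cell genes tested, 1 fell on TDD in SPF mice, which is near the share of 7.71% over all genes. It was Cd209a, a lectin of monocyte-derived dendritic cells (log2 fold change -1.0, q = 0.00553, edgeR), and the median of the list was 0.04. Under ABX none passed between the diets, with Flt3 at 0.33 and Zbtb46 at 0.09. Cd209a was then at 0.57 (q = 0.226, edgeR), and its interaction of 1.58 did not pass (standard error 0.32, q = 0.0671, edgeR). ABX lowered 9 of 16 on CD, among them Cd209a (-1.15, q = 0.00276, edgeR), Itgae (-1.18, q = 0.00369, edgeR), Clec9a (-0.54, q = 0.0124, edgeR) and Sirpa (-0.43, q = 0.0135, edgeR), with a median of -0.51. On TDD, where Cd209a was at 0.43 (q = 0.203, edgeR), it lowered 7 of 16, foremost the transcription factor gene Irf4 (-1.22, q = 0.0106, edgeR) and the growth factor receptor gene Flt3 (-0.63, q = 0.0298, edgeR). Lymphocytes also use Itgae, Irf4 and the gene Spn of the monocyte list. T cell genes fell with ABX too, in 8 of 9 on CD and 5 of 9 on TDD. The part of lymphocytes in these counts was not tested.

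Growth factors for these cells did not pass between the diets. Of 9 growth factor and chemokine genes tested, none passed on TDD in SPF mice, where Csf1, the ligand of CSF1R, was at -0.16 and Il34 at 0.21. Larger changes came near the limit there, namely Csf2 at 0.84 (q = 0.0537, edgeR) and Ccl8 at -1.27 (q = 0.0693, edgeR). ABX lowered Csf1 on CD (log2 fold change -0.46, q = 0.00911, edgeR) and on TDD (-0.40, q = 0.0196, edgeR), and Tgfb1 in both (-0.56, q = 0.0280, and -0.53, q = 0.0346, edgeR). Flt3l was lower with ABX on TDD (-0.34, q = 0.0145, edgeR). Of the 7 genes for partners and ligands of CD11b and CD11c, ABX lowered 5 in each diet, among them Itgb2, the shared beta chain (-0.94, q = 0.00799, on CD and -0.71, q = 0.0327, on TDD, edgeR), and none passed between the diets. T cells also use Itgb2 and Itgal.

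Most classical complement genes were lower on TDD in SPF mice. Of 9 genes tested, C1qa included, 7 passed as lower on TDD in SPF mice with a median of -0.38, foremost C1qb, C2 (log2 fold change -1.0, q = 0.00538, edgeR), C1qc (-0.40, q = 0.00911, edgeR) and C1qa. The list for macrophages above holds C1qb and C1qc too. With ABX 6 of 9 were lower on CD, and on TDD 3 were lower and C1qbp higher (0.38, q = 0.0207, edgeR). C1qbp, which encodes a C1q-binding protein, and Serping1, which encodes an inhibitor of C1, are counted here but are no components of the pathway. Between the diets under ABX none passed, with C1qa at -0.35 and C1qb at -0.34.

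Genes of haem and iron handling, the setting in which CD163 is known to work, mostly fell on TDD in SPF mice, where 5 of the 9 genes of the list passed as lower and 1 as higher. Slc40a1, the iron exporter ferroportin (log2 fold change -0.65, q = 0.00131, edgeR), the ferritin gene Fth1 (-0.53, q = 0.00700, edgeR) and the globin gene Hbb-bs (-1.03, q = 0.00901, edgeR) were among those that fell. The gene that rose, Hpgd (0.67, q = 0.00623, edgeR), encodes an enzyme that breaks down prostaglandins and is no haem or iron gene. Under ABX none passed between the diets, with Hmox1 at -0.21 and Slc40a1 at -0.34. With ABX, Slc40a1 fell in both diets (-0.86, q = 0.000261, on CD and -0.55, q = 0.00609, on TDD, edgeR), and Hmox1, haem oxygenase, fell on TDD (-0.58, q = 0.00164, edgeR), where Hbb-bs rose (0.97, q = 0.0147, edgeR). Epithelium also uses Slc40a1 and Fth1.

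Of 12 genes that myeloid cells share for signalling and transcription, 2 fell on TDD in SPF mice, beside 7.71% of all genes. They were Cebpa (-0.41, q = 0.00232, edgeR) and the Fc receptor gene Fcgr4 (-0.59, q = 0.0126, edgeR). Under ABX none passed between the diets, and Spi1, which encodes PU.1, was at -0.02 there. ABX lowered 7 on CD, among them the Fc receptor genes Fcgr3 (-0.61, q = 0.00436, edgeR) and Fcer1g (-0.41, q = 0.00797, edgeR), and raised Cebpb (0.53, q = 0.0395, edgeR), and it lowered 6 on TDD. Of 12 lysosomal genes, ABX lowered 2 on CD and 6 on TDD, in both Ctsl (-0.32, q = 0.0141, and -0.43, q = 0.00241, edgeR).

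**Figure D5:**
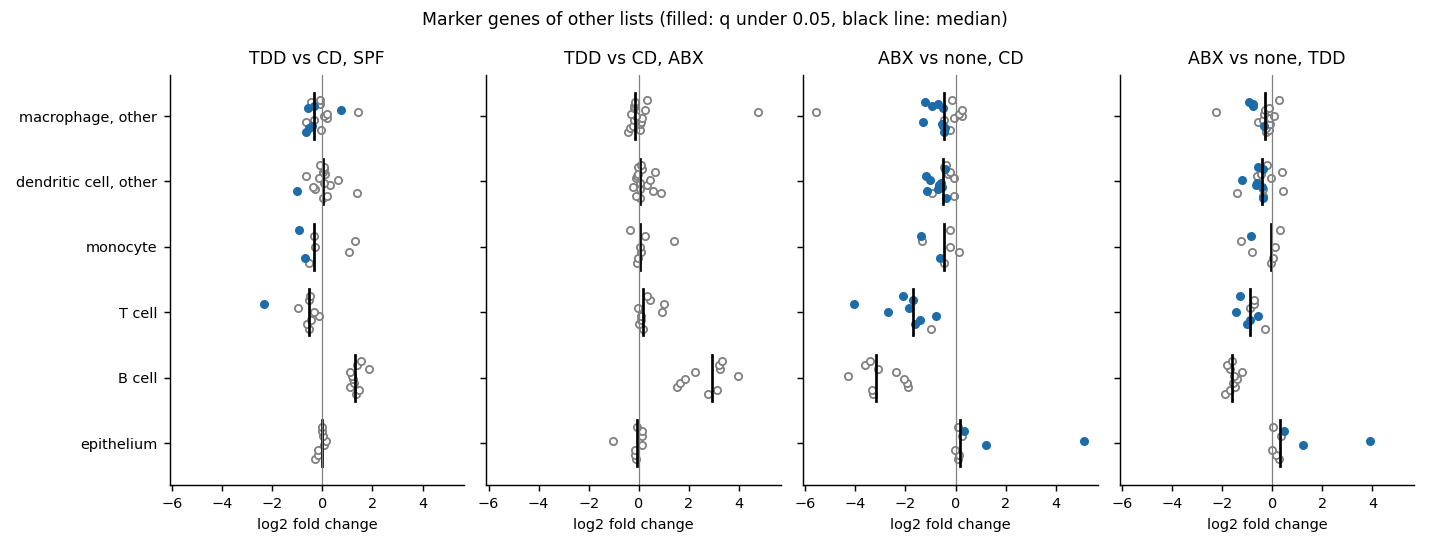
Log2 fold change (horizontal axes) of the tested genes of 6 marker lists (vertical axis) in the 4 comparisons, where each point is a gene, filled points passed at q under 0.05 and the black line is the median of the list. Dendritic cell genes centre near 0 between the diets (median 0.04 in SPF mice and 0.04 with ABX) and at -0.51 with ABX on CD, and T cell genes at -1.71 there.

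Markers of other cells moved with ABX as well. Their part in the results above was not tested. T cell genes fell with ABX in 8 of 9 on CD and 5 of 9 on TDD, and their summed level was 45.7 to 127 CPM in CD mice, 33.1 to 58.3 CPM in TDD, 21.8 to 28.6 CPM in CD+ABX and 21.2 to 41.4 CPM in TDD+ABX. Between the diets in SPF mice 1 of 9 fell, Cd8b1 (log2 fold change -2.33, q = 0.00838, edgeR), beside 7.71% of all genes. Over the 20 mice, r with the T cell sum was 0.77 for Csf1r, 0.77 for Lyz2, 0.76 for Cd68 and 0.23 for Cd163, values that include the differences between groups. Within groups, r was 0.37 for Csf1r, 0.48 for Lyz2, 0.73 for Cd68 and -0.16 for Cd163. Natural killer and innate lymphoid genes fell in 4 of 8 with ABX on CD and 1 of 8 on TDD, with summed levels of 16.5 to 116 CPM in CD mice and 26.0 to 33.7 CPM in TDD mice. Between the diets in SPF mice 1 of 8 rose, Klrb1c (log2 fold change 0.97, q = 0.0135, edgeR), beside 6.65% of all genes. B cell genes passed in no comparison, with summed levels of 9.06 to 161 CPM in CD, 7.73 to 260 CPM in TDD, 5.60 to 14.2 CPM in CD+ABX and 6.49 to 182 CPM in TDD+ABX. Genes of follicular dendritic and M cells, which sit in lymphoid follicles, fell in 2 of 6 with ABX on CD and 1 of 6 on TDD, and passed in neither diet comparison.

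The neutrophil genes S100a8, S100a9, Ly6g and Mmp8 stayed below 0.5 CPM in every mouse, and the 8 neutrophil genes summed to 3.26 to 11.2 CPM. Of the 4 tested, Mmp9 and Csf3r fell with ABX on CD and Mmp9 on TDD. Of the 6 mast cell genes, 5 stayed below 0.5 CPM in every mouse, and the 6 eosinophil genes summed to 3.46 to 15.9 CPM, with Siglecf higher with ABX on CD. Epithelial genes were abundant at a sum of 10374 to 26127 CPM over 8 genes. None of these passed between the diets, and 3 of 8 were higher with ABX in each diet. The level of the ileal gene Fabp6 was far from equal between those groups. Its log2 fold change with ABX was 5.14 on CD (35.2-fold, q = 0.00585, edgeR) and 3.92 on TDD (15.1-fold, q = 0.0198, edgeR). Whether all pieces came from the same stretch of intestine was not tested. Paneth cell genes summed to 6924 to 14920 CPM, with 2 of 7 higher on TDD in SPF mice (Pla2g2a and Mmp7), 1 lower on TDD under ABX (Defa17) and 1 lower with ABX on TDD (Mmp7). The 6 smooth muscle genes passed in no comparison and summed to 472 to 2508 CPM. Within groups, r with the smooth muscle sum was -0.69 for Itgax, -0.67 for Cd68 and -0.64 for Itgam, and 0.29 for Cd163. Cd163 was further from 0 with other sums within groups. It was at 0.65 with the Paneth cell sum, where the other genes lay between -0.22 and 0.57. With the epithelial sum it was at -0.64, where the others lay between -0.25 and 0.25. The part of these cells in the Cd163 differences was not tested. Of 5 endothelial genes, 2 fell with ABX on TDD.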

How the data were processed

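Poly-A RNA of the ileum of 20 mice was sequenced. Per the submitters' processing notes, reads were assigned to the transcriptome of GRCm38 (mm10) with kallisto 0.44.0, which splits reads shared by several transcripts. The authors deposited unnormalized estimated counts for each gene. For each mouse they also deposited TPM and estimated counts of every transcript, and TPM were summed per gene here.

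The gene counts were rounded and scaled by TMM, and CPM refer to that scale. Genes reaching 0.5 CPM in 1 mouse or more, 16306 in all, entered a quasi-likelihood fit of the 4 groups with robust estimation (edgeR 4.0.16, R 4.3.3). P-values were adjusted over these genes (Benjamini-Hochberg, q), a gene passed at q under 0.05, and the 2-fold limit of the study was applied in addition. The test used within iDEP is not given in the sources used here. The 95% intervals of log2 fold changes were taken from their standard errors. Counts of 16306 genes were simulated with 100 genes changed by 0.5 and 100 by 1 (log2) in TDD. No other gene differed between groups. Of these changes 44% and 79% were recovered, and 5.4% of the genes that passed were false. In the real data 2342 genes passed between CD and TDD. The limit set by the adjustment depends on that number, so these shares need not hold for the real comparison. Total counts of 36.68 M to 58.66 M per mouse set the counting error, which is widest for Cd163.

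The 10 genes and the lists were chosen with earlier results of these data known. Named besides the 10 were Lyz1, up to 4 genes per list and comparison that passed, by smallest p, or the first 2 of a list where none passed, and the genes most correlated with the 10 (with a mean of 1 CPM or more). Msr1, Csf2 and Ccl8 between the diets, Cebpb with ABX, and Itgal on TDD were named outside this rule, after their values were seen. The diet result of the lysosomal list is not reported here. Alternatives were scaling (RLE, upper quartile), tool (DESeq2 1.42.0, voom of limma 3.58.1), filter, limma on log2(TPM + 1) and log2(TPM + 0.1), the groups in the fit, a replicate block, each mouse left out, and Lyz1 and Lyz2 summed. Added after seeing the data were a fit without robust estimation and a B cell covariate. The 40 pairs of mice within groups differed by more than sampling noise (mean chi-square per gene 18.8 to 165), and none was treated as a duplicate. Positions are from GENCODE M21 on GRCm38, and promoters from RefSeq on GRCm38.p6.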

Additional observations from a re-analysis of the deposited data

Results flagged for a closer look

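In 40 sets of 5 mice (10 genes in 4 groups), 4 had a mouse that stood apart from the other 4 by Dixon's test at the 95% level, which chance does in about 1 set in 20. In 3 of them it was TDD mouse 1, the lowest of its group, for Cx3cr1 (5.95 CPM), Cd68 (4.29 CPM) and Mrc1 (8.13 CPM). In the other it was TDD+ABX mouse 5, the highest of its group, for Lyz2 (55.2 CPM), and its B cell marker sum was 182 CPM beside 6.49 to 41.4 CPM in the other 4 mice of the group. TDD mouse 1 had a B cell sum of 7.73 CPM beside 124 to 260 CPM in the other 4 TDD mice. The part of these markers in the levels was not tested.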

How the results depend on the processing

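Of the 10 genes, 4 to 6 passed between the diets in SPF mice under all alternatives. Under ABX none passed, except 1 with DESeq2, 2 with the B cell covariate, and 0 to 1 when single mice were left out (1 without TDD mouse 1). Of all 16306 genes, 613 passed there with DESeq2 and 178 with the B cell covariate, beside 268 in the main fit. The effect of ABX on CD gave 3 to 7 genes when single mice were left out (3 without CD mouse 5 or CD+ABX mouse 2, 7 without TDD mouse 1). The effect of ABX on TDD gave 2 in place of 4 with either limma fit of TPM, without a filter, with only the groups compared and with the B cell covariate, and 2 to 7 when single mice were left out. Fewer samples or more genes tested are part of some of these settings, and the cause was otherwise not tested. The count at 2-fold was 0, and 0 to 1 when single mice were left out, for the diet in SPF mice (1, Cd163, without CD mouse 2, TDD mouse 1 or TDD mouse 4) and for ABX on TDD (1 without TDD mouse 1, TDD mouse 4 or TDD+ABX mouse 5). No interaction of the 10 genes passed under any alternative.

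Changes of sign, the summed lysozymes aside, were seen only in differences that did not pass. Cd68 with ABX on TDD was at 0.09 and 0.10 in the limma fits of log2(TPM + 1) and log2(TPM + 0.1). Lyz1 and Lyz2 summed gave 0.06 for the diet in SPF mice and -0.14 for the interaction, but the sum is nearly all Lyz1 and says nothing of the sign of Lyz2. When single mice were left out, the diet effect in SPF mice ran from -0.18 to 0.04 for Cx3cr1 and from -0.06 to 0.06 for Mrc1, and that of Cx3cr1 under ABX from -0.15 to 0.02. The interaction ran from -0.02 to 0.11 for C1qa, from -0.11 to 0.14 for Cx3cr1, from -0.08 to 0.08 for Itgam and from -0.20 to 0.12 for Lyz2.

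The replicate numbers in the labels did not pair the mice: deviations from the group means correlated at a median of -0.03 (-0.42 to 0.29) over 30 pairs of mice with the same number, and 2 of 20 mice were closest to a mouse of their own number. With the replicate block, 5, 0, 6 and 4 of the 10 genes passed in the 4 comparisons, as without it, while the count over all genes under ABX went from 268 to 113, and the interaction of Lyz2 was -0.01.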
